A study of Mus musculus with 7 samples.

Results

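The genes described here are 4 homeobox transcription factors of the non-beta cells of the pancreatic islet: Irx1, Irx2 and Pou3f4, known from glucagon-producing alpha cells, and Hhex, known from somatostatin-producing delta cells. They were measured in cells sorted as beta cells from mice at postnatal day 25. Members were chosen by name, as every probe set whose annotated gene symbol is, or includes, one of these symbols. This gave 4 probe sets of 35556, 1 for each gene, and none of them carried a second symbol. The genes stand for 4 of the 19938 genes with a probe set of their own on the array.

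All 7 mice, on the ICR background, carried an insulin-Cre transgene and the Rosa26-LSL-YFP reporter, in which Cre removes a stop cassette and switches on yellow fluorescent protein. The weaned group held 3 mice taken off the mother early, at day 18 (replicates 4, 5 and 12), and the suckling group held 4 mice that were still with the mother at day 25 (replicates 2, 9, 11 and 12). Between 2000 and 6000 fluorescent cells were sorted per mouse, and each mouse gave 1 Affymetrix array. The insulin promoter drives Cre, and a cell stays fluorescent once Cre has acted, so the sort selects on present or past activity of that transgene and not on a beta cell marker protein.

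Alpha, beta and delta cells of the islet arise from common endocrine progenitors, and their identity is kept by transcription factors that switch on the genes of a cell type or hold back those of its neighbours. In the mouse, Irx1 and Irx2 belong to the Iroquois homeobox family and mark alpha cells, and Pou3f4 (also called Brn4) is a POU homeobox factor that is among the early factors of the alpha lineage and binds the glucagon gene promoter. Hhex is a homeobox factor that delta cells need for somatostatin production in the mouse. Outside delta cells it is known from duct, endothelial and blood cells. Mature beta cells are known to keep these genes low.

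The start regions of the members are shown to let their promoters be compared. The 250 bases before the start in RefSeq (build GRCm38.p6) are given 5′ to 3′ for the 3 members in the promoter table, with the CCAAT box, on either strand (CCAAT or ATTGG), in capitals.

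Irx2, chr13:72628570-72628819, plus strand: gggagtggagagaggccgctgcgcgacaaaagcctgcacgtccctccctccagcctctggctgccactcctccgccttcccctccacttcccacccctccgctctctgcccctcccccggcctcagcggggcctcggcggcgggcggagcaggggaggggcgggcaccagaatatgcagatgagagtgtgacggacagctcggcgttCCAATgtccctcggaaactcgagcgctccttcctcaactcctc
Pou3f4, chrX:110814129-110814378, plus strand: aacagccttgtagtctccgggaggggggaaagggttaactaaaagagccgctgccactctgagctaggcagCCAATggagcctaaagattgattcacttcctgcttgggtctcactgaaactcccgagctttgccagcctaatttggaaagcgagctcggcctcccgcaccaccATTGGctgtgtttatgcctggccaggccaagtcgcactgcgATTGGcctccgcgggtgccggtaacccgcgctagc
Hhex, chr19:37434591-37434840, plus strand: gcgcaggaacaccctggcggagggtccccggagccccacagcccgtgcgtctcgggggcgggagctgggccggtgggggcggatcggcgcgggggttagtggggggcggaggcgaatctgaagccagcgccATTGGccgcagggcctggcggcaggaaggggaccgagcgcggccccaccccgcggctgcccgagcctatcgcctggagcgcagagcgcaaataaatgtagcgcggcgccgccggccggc

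The 3 promoters shown each held more CpG dinucleotides than the median promoter, and CpG-rich promoters are common among genes of developmental regulators. The Hhex stretch held 32 CpG, that of Irx2 19 and that of Pou3f4 13, where the median of all 32851 promoters of this length was 6. At least 32 CpG were found in 4.58% of promoters, at least 19 in 19.7% and at least 13 in 31.5%. The CCAAT box occurred 3 times before Pou3f4 and once each before Irx2 and Hhex. It was present in 33.9% of promoters, and 3 or more copies in 2.79%. The homeodomain core TAAT (or ATTA) occurred once before Pou3f4 and not before Irx2 or Hhex, and was present in 54.9% of promoters. The TATA sequence TATAAA (or TTTATA), present in 12.4%, was in none of the 3 stretches, and no match of the 3 motifs overlapped another.

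Levels are log2 of the deposited intensity, an array brightness on which different probe sets have different sensitivity, so that values are compared between arrays and not between genes. The files carry no detection calls. As a background, 1035 probe sets of olfactory receptor genes, which are silent in most tissues, had a median mean level of 2.09 and a 95th percentile of 3.27 log2 units. Irx1 and Irx2 exceeded 3.27 on all 7 arrays, Hhex on 6 and Pou3f4 on 4 (1 of 3 weaned and 3 of 4 suckling arrays). The share of olfactory receptor probe sets with a mean level at or above that of the member was 0.193% for Irx2, 0.773% for Irx1, 1.55% for Hhex and 4.25% for Pou3f4. The sorted cells also gave bright signal for the hormone genes of the other islet cells. Gcg, which encodes glucagon, had a mean of 11.95 ± 0.32 log2 units (SD, n = 3) in weaned and 12.13 ± 0.16 (n = 4) in suckling mice, and Sst, which encodes somatostatin, 11.80 ± 0.39 and 12.01 ± 0.04. The beta cell gene Ucn3 was bright as well, at 10.46 ± 0.20 and 10.49 ± 0.12. Other beta cell genes ran from Iapp at 12.48 ± 0.09 and 12.51 ± 0.05 to Mnx1 at 5.86 ± 0.14 and 5.39 ± 0.15. Between them, Ins2 stood at 8.25 ± 0.24 and 8.27 ± 0.11. As probe sets differ in sensitivity, these levels do not rank the genes. All 12 measured genes of the beta cell list had a mean level above 3.27. In bulk samples such as these, fewer cells of a type and less RNA per cell cannot be told apart.

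**Figure D1:**
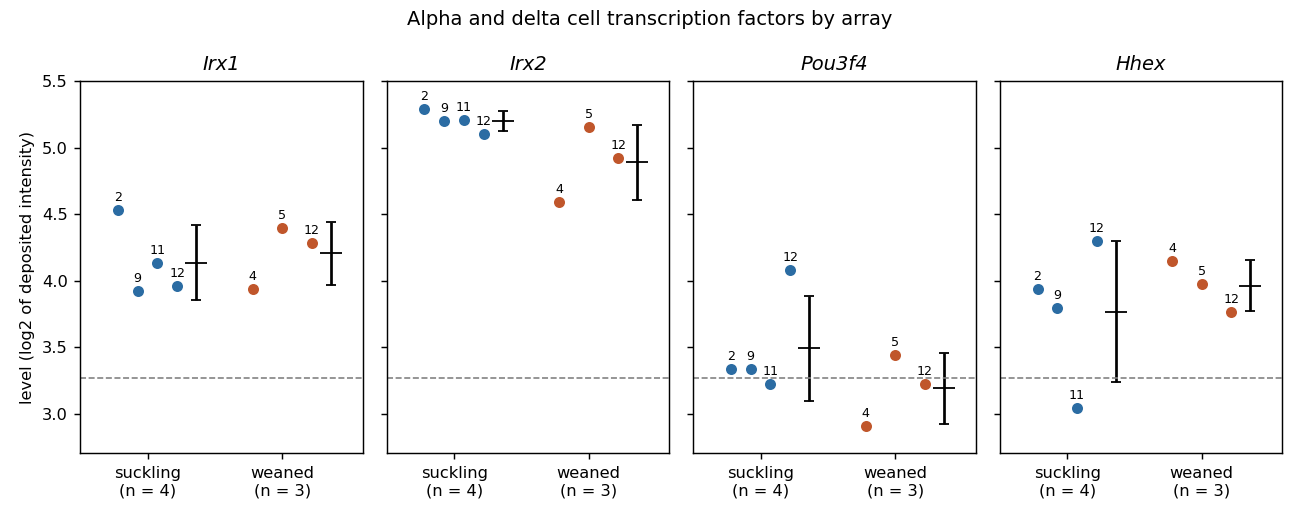
Level of each member (y axis, log2 of the deposited intensity) on each of the 4 suckling and 3 weaned arrays, labelled with the replicate number; bars are mean ± SD and the dashed line is the 95th percentile of olfactory receptor probe sets (3.27). In all 4 genes the groups overlap, with weaned replicate 4 lowest for Irx2 and Pou3f4 and suckling replicate 12 highest for Pou3f4 and Hhex.

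The comparison of weaned with suckling mice asks whether early weaning alters these transcripts in sorted beta cells of the same age. None of the 4 transcription factors differed beyond the spread between mice. By limma, with Benjamini-Hochberg adjustment over all probe sets, 0 of 4 members passed an adjusted p of 0.05, where 0.00844% of all probe sets passed. The count was also 0 of 4 at an unadjusted p under 0.05, beside 6.56% of all probe sets, with 3.5% higher and 3.06% lower in weaned mice. The groups of arrays overlapped for all 4 members, while groups that did not overlap were seen for 3.46% of probe sets with weaned mice higher and 3.03% with weaned mice lower. By mean, 2 members were higher and 2 lower in weaned mice. Counted in the same fit over the 19938 genes, each through 1 probe set, as for the gene lists, 0.00502% of genes passed the adjusted threshold, all of them lower in weaned mice, and 6.81% had an unadjusted p under 0.05. Groups that did not overlap were seen for 3.9% of genes with weaned mice higher and 3.43% with weaned mice lower.

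Irx2 came closest to a separation of the groups. It stood at 4.59, 5.15 and 4.92 log2 units in weaned mice 4, 5 and 12, and at 5.29, 5.20, 5.20 and 5.10 on suckling replicates 2, 9, 11 and 12. Weaned replicate 4 was the lowest of all arrays, while weaned replicate 5 lay within the narrow suckling range. The means were 4.89 ± 0.29 (SD, n = 3) in weaned and 5.20 ± 0.08 (n = 4) in suckling mice, a log2 difference of -0.31 (SE 0.14, 95% interval -0.65 to 0.03, limma, adjusted p = 0.773). The interval spans a level 1.57-fold lower to 1.02-fold higher in weaned mice. Without weaned replicate 4 the difference was -0.16, and without weaned replicate 5 it was -0.44 (limma, unadjusted p = 0.0146, adjusted p = 0.82), while the adjusted p over all alternatives ran from 0.663 to 0.995.

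Irx1, the other Iroquois alpha cell gene, did not share this difference between group means. It stood at 3.94, 4.39 and 4.28 log2 units in weaned mice 4, 5 and 12, and at 4.53, 3.92, 4.13 and 3.96 on suckling replicates 2, 9, 11 and 12. The highest and the lowest array were both from suckling mice, and the weaned values lay between them. As for Irx2, replicate 4 was the lowest and replicate 5 the highest weaned array, and suckling replicate 2 was the highest of all. Irx1 and Irx2 gave Pearson's r = 0.42 over the 7 arrays and 0.74 on deviations from the group means. The means of 4.20 ± 0.24 (SD, n = 3) and 4.14 ± 0.28 (n = 4) differed by 0.07 on the log2 scale (SE 0.19, interval -0.37 to 0.51, limma, adjusted p = 0.954), which spans 1.29-fold lower to 1.42-fold higher in weaned mice. The sign of this difference depended on single arrays, with -0.03 without weaned replicate 5 and 0.20 without weaned replicate 4 or suckling replicate 2.

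Pou3f4, the POU factor of the alpha lineage, lay at the edge of the background. Its levels were 2.91, 3.44 and 3.22 log2 units in weaned mice 4, 5 and 12, and 3.33, 3.33, 3.22 and 4.08 on suckling replicates 2, 9, 11 and 12. Suckling replicate 12 was the highest array, and the other 6 arrays lay between 2.91 and 3.44. The means were 3.19 ± 0.27 (SD, n = 3) and 3.49 ± 0.39 (n = 4), a log2 difference of -0.30 (SE 0.24, interval -0.86 to 0.26, limma, adjusted p = 0.845). Without suckling replicate 12 the difference was -0.10 and without weaned replicate 4 it was -0.16. With the weaned mean below 3.27, the size of the difference on this scale is limited by the background.

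Hhex, the delta cell factor, varied most among suckling mice. It stood at 4.14, 3.97 and 3.76 log2 units in weaned mice 4, 5 and 12, and at 3.94, 3.79, 3.04 and 4.30 on suckling replicates 2, 9, 11 and 12. The suckling values enclosed all weaned values, and the 1.25 log2 units between suckling replicates 11 and 12 exceeded the weaned range of 0.38. The means of 3.96 ± 0.19 (SD, n = 3) and 3.77 ± 0.53 (n = 4) differed by 0.19 (SE 0.28, interval -0.47 to 0.86, limma, adjusted p = 0.912), which spans 1.39-fold lower to 1.81-fold higher in weaned mice. Without suckling replicate 11 the difference was -0.05, and without suckling replicate 12 it was 0.37.

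**Figure D2:**
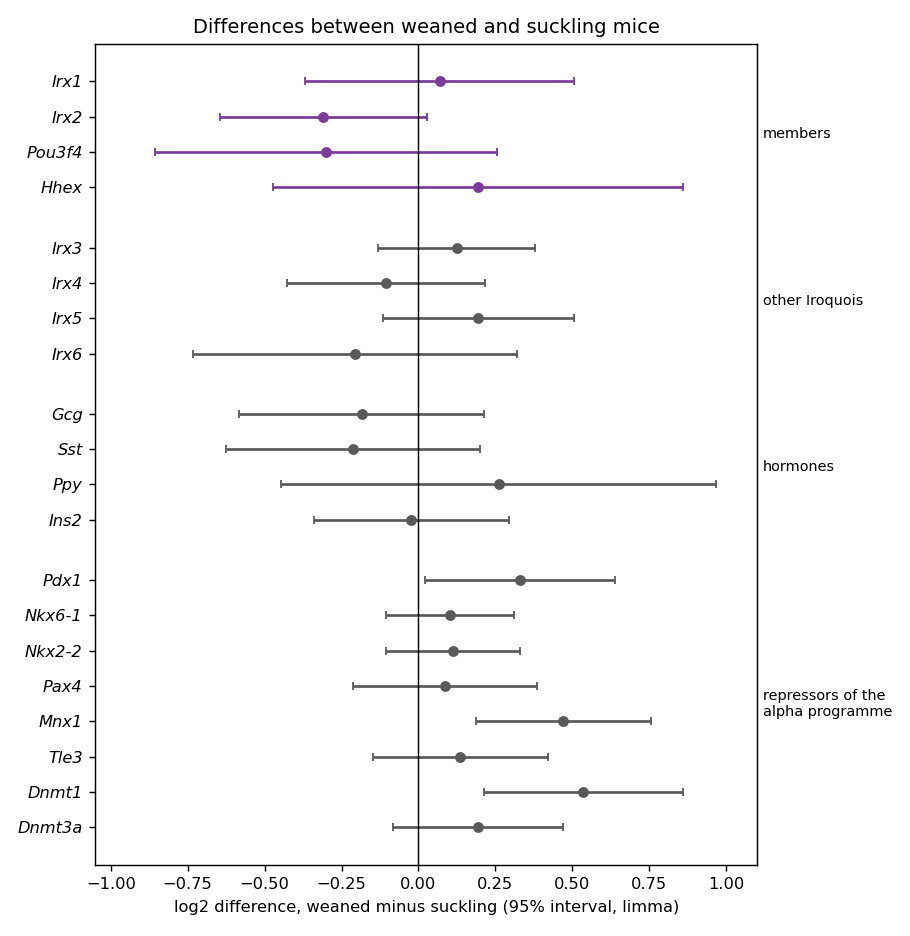
Log2 difference, weaned minus suckling, with its 95% interval from limma (x axis), for the members, the other Iroquois genes, hormone genes and repressors of the alpha cell programme (y axis). The intervals of the 4 members include 0, and that of Irx2 ends at 0.03.

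The remaining members of the Iroquois family pattern tissues such as heart, limb and neural tube. Of these, Irx3 had a mean level of 3.44 log2 units, and the others lay below 3.27. Of 7 measured genes of the family list, which also holds the related Mkx, only Irx1, Irx2 and Irx3 had a mean level above the olfactory receptor percentile. Irx3 differed by 0.12 (SE 0.11), and Irx4, Irx5 and Irx6, all with group means of 2.88 to 3.17 log2 units, by -0.10, 0.19 and -0.21. Mkx differed by -0.04. Over the whole list of 7, with Irx1 and Irx2 included, 3 were higher by mean in weaned mice. Of the 7, 0 passed the adjusted threshold or an unadjusted p under 0.05. The median of the family was -0.04, beside 0.0005 over all genes.

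Irx1 and Irx2 lie next to each other among the protein-coding genes of chromosome 13 in the RefSeq order (GRCm38.p6), with Irx4 on the far side of Irx2 and the protease gene Adamts16 on the far side of Irx1. Adamts16 differed by -0.16 (SE 0.11). Ndufs6, a subunit of respiratory complex I that follows Irx4, was higher on every weaned than on every suckling array, beside 3.9% of all genes. It stood at 9.56 ± 0.14 log2 units (SD, n = 3) against 9.19 ± 0.09 (n = 4), with an adjusted p of 0.696 by limma. Exoc6, an exocyst subunit and the protein-coding gene after Hhex on chromosome 19, differed by 0.33 (SE 0.14, limma, adjusted p = 0.764). The 2 protein-coding genes after Pou3f4 on the X chromosome, Cylc1 and Rps6ka6, differed by 0.13 and 0.31. These neighbours were named after their values could be seen.

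Of the POU family list, 10 of 14 genes were measured, and 0 passed the adjusted threshold or an unadjusted p under 0.05. Their median difference was -0.03, and 4 were higher and 6 lower by mean. Only 5 of the 10 had a mean level above the olfactory receptor percentile. Pou4f3, a hair cell factor with the smallest p of the list, had means of 2.15 and 2.45 log2 units, within the olfactory receptor range.

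Other alpha cell genes gave no common direction. Of 10 genes listed 7 were measured, 6 of them with a mean level above the olfactory receptor percentile. By mean 3 were higher and 4 lower in weaned mice, with a median of -0.07. Of the 7, 0 passed the adjusted threshold or an unadjusted p under 0.05. Gcg stood at 11.73, 12.32 and 11.79 log2 units in weaned mice 4, 5 and 12 and at 11.90 to 12.26 on the suckling arrays, so that weaned mice held both the highest and the lowest array, and it differed by -0.18 (SE 0.17). Mamld1, a mastermind-like gene, differed by -0.55 (SE 0.28) and was lowest on weaned replicate 4, at 4.37, against 5.17 and 5.52 for the other weaned mice and 5.43 to 5.94 for suckling mice. Ttr, which encodes transthyretin, differed by 0.23 (SE 0.12), in the opposite direction.

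Delta cell genes did not move as a group either. All 9 listed genes other than Hhex were measured, but only 5 of them had a mean level above the olfactory receptor percentile. By mean 4 were higher and 5 lower, with a median of -0.03. Of the 9, 0 passed the adjusted threshold or an unadjusted p under 0.05. Sst stood at 11.46, 12.22 and 11.71 log2 units in weaned mice 4, 5 and 12 and at 11.98 to 12.06 on the suckling arrays, a log2 difference of -0.21 (SE 0.18). Frzb, a secreted Wnt antagonist, differed by 0.25 (SE 0.13), and Rbp4, which encodes a retinol carrier, by -0.23 (SE 0.14). Ppy and Pyy, hormone genes of PP cells, differed by 0.26 (SE 0.30) and 0.002 (SE 0.18). The insulin gene Ins2 differed by -0.02 (SE 0.13).

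**Figure D3:**
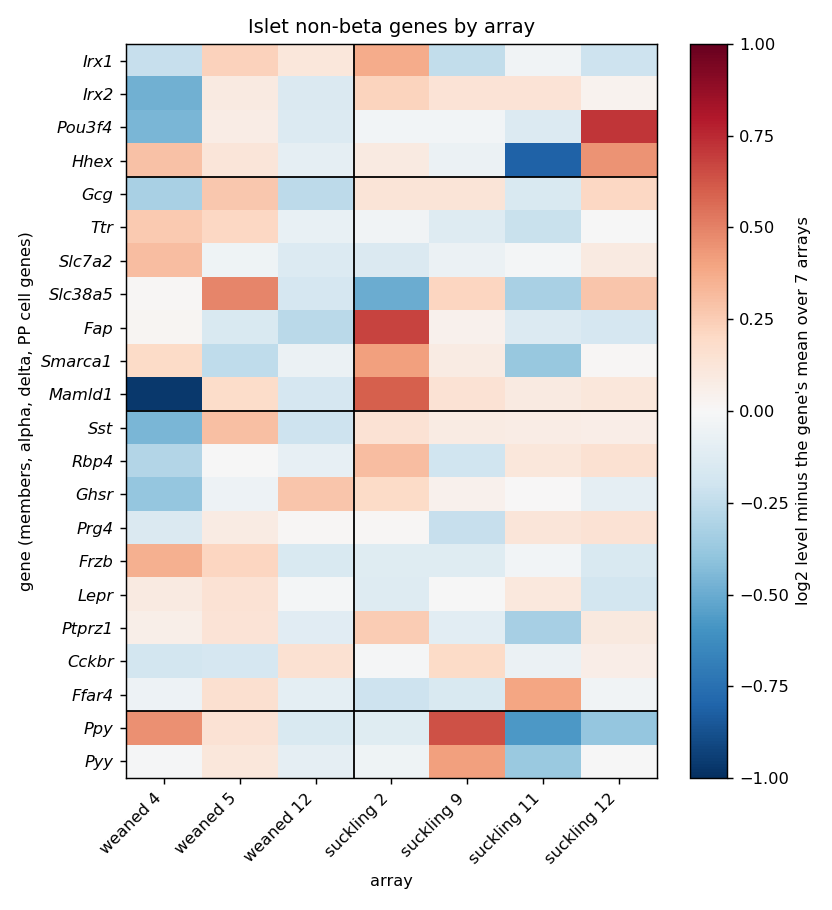
Log2 level of each gene on each array minus the gene's mean over the 7 arrays (colour, from -1 to 1), for the members and the measured alpha, delta and PP cell genes (rows, divided by lines) on weaned and suckling arrays (columns). Weaned replicate 4 was the lowest array for Irx2, Pou3f4, Gcg, Sst and Mamld1 but not for Hhex, Ttr or Frzb.

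Across the arrays, the alpha cell members were set beside the hormone genes. Weaned replicate 4 was the lowest array for 2 of the 4 members, 2 of 7 other alpha genes and 4 of 9 other delta genes, where it was lowest for 17.1% of all genes. It was the highest array for 0 of the 4 members, 2 of 7 other alpha genes and 1 of 9 other delta genes, beside 17.1% of all genes. Irx2 and Sst gave Pearson's r = 0.911 over 7 arrays (exact permutation p = 0.0113) and Spearman's rho = 0.75 (exact permutation p = 0.0663). Among the 20 pairs of a member with Gcg, Sst, Ppy, Ucn3 or the mean of acinar markers, the adjusted p of Pearson's r for this pair was 0.226. Without weaned replicates 4 and 12, the arrays farthest from the median of Sst, r was 0.008, so the relation rested on those arrays. On deviations from the group means r was 0.93 (exact permutation p = 0.0181, adjusted p = 0.361), and a value within each group cannot be given with 3 and 4 arrays.

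Pou3f4 and Gcg gave r = 0.714 (exact permutation p = 0.027, adjusted p = 0.27) and rho = 0.919 (exact permutation p = 0.00635, adjusted p = 0.127). Without weaned replicates 4 and 12 r was 0.519 (exact permutation p = 0.3), and on deviations from the group means 0.649 (exact permutation p = 0.113). Irx2 and Gcg gave r = 0.72 (exact permutation p = 0.045, adjusted p = 0.3) and rho = 0.429 (exact permutation p = 0.354), and r was -0.364 without the same arrays. Irx1 and Gcg gave r = 0.236 and rho = 0.393 (exact permutation p = 0.6 and 0.396). Hhex and Sst, the factor and the hormone of the delta cell, gave r = -0.172 and rho = -0.107 (exact permutation p = 0.674 and 0.84), with the highest and the lowest Hhex value both at Sst levels of 11.98 to 11.99. None of the 20 pairs passed after adjustment.

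**Figure D4:**
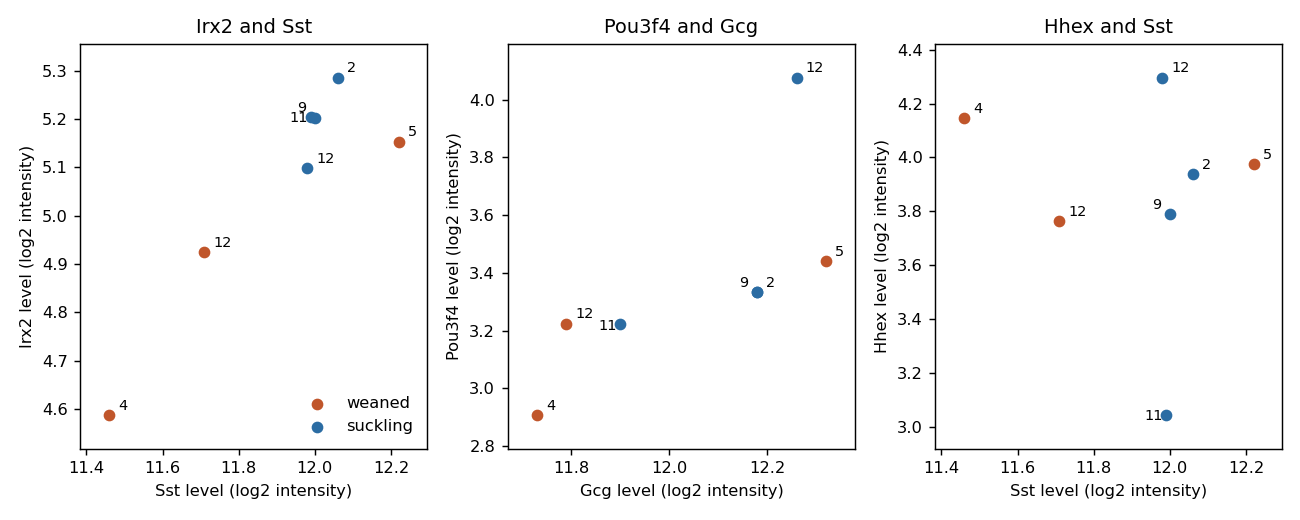
Level of a transcription factor (y axis) against that of a hormone gene (x axis), both in log2 intensity, on each array, labelled with the replicate number and coloured by group (suckling replicates 2 and 9 coincide for Pou3f4). The low values of Irx2 (4.59) and Pou3f4 (2.91) on weaned replicate 4 go with its low Sst (11.46) and Gcg (11.73), and Hhex shows no such order.

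The genes most like each member were taken by Pearson's r over the 7 arrays among 12877 named genes, as a description of 7 points. For Irx2 the first was Mamld1 (r = 0.967), which also stands in the alpha cell list, followed by Tor1a, which encodes torsin A (0.961), and Tmem190 (0.959). For Irx1 they were Dact2 (0.977), Pik3c2b, a phosphoinositide 3-kinase gene (0.976), and Map3k7cl (0.962). For Pou3f4 they were Arhgef17 (0.973), Ptprn, a secretory granule membrane protein (0.973), and Pef1 (0.972), each with its highest level on suckling replicate 12. For Hhex they were Cd93, a surface receptor of endothelial and myeloid cells (0.976), Denn2b (0.966) and the formin gene Daam1 (0.960), each lowest on suckling replicate 11 and highest on suckling replicate 12. The genes named were picked by r, so shared highest and lowest arrays follow from the choice. An r above 0.9 was reached by 26 to 56 genes per member, and no gene stood in the first 3 of more than 1 member. How many genes would reach such an r by chance was not computed.

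Genes known to hold back the alpha cell programme in beta cells shared a sign, though 0 passed. All 8 listed genes were measured and had a higher mean in the weaned group, with a median of 0.16 beside 0.0005 over all genes. An unadjusted p under 0.05 was reached by 3 of 8, beside 3.9% of all genes in that direction. The list was drawn up with results on some of its members known, so its direction is not independent evidence. Mnx1, a homeobox factor of beta cells, stood at 5.86, 5.72 and 6.01 log2 units in weaned mice 4, 5 and 12 and at 5.20 to 5.57 on the suckling arrays, and differed by 0.47 (SE 0.12, limma, adjusted p = 0.676). Dnmt1, the maintenance DNA methyltransferase, stood at 6.13, 5.89 and 6.34 log2 units in the weaned and at 5.40 to 5.74 in the suckling group, and differed by 0.54 (SE 0.14, limma, adjusted p = 0.676). Every weaned array lay above every suckling array in both genes, beside 3.9% of all genes.

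Pdx1, which directs pancreas formation and insulin transcription, differed by 0.33 (SE 0.13, limma, adjusted p = 0.757), with levels of 9.04 to 9.13 log2 units in weaned and 8.54 to 9.04 in suckling mice. Nkx6-1 and Nkx2-2, beta cell homeobox factors, differed by 0.10 (SE 0.09) and 0.11 (SE 0.09). The pan-endocrine transcription factors had a median of 0.13 over 13 measured genes, 10 of them higher by mean and 0 past either threshold. Rfx6 differed by 0.28 (SE 0.13) and St18 by 0.26 (SE 0.16). Beta cell genes had a median of -0.02 over 12 measured genes. An unadjusted p under 0.05 was reached by 2 of them, beside 6.81% of all genes. These were Mnx1 and Pdx1, which are also in the list of repressors.

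Markers of exocrine and other cells varied beside the members. Acinar markers, 13 measured, had list means of 3.89 to 5.97 log2 units on weaned and 4.15 to 7.74 on suckling arrays, with suckling replicates 2 and 9 highest. All 13 were lower by mean in weaned mice, with differences of -2.72 to -0.002 (median -1.53), and 12 had a mean level above the olfactory receptor percentile. Of the 13, 1 had an unadjusted p under 0.05, beside 6.81% of all genes, and 0 passed the adjusted threshold. The median ran from -2.35 without weaned replicate 12 to -0.92 without suckling replicate 2 when single arrays were left out. It was 0.10 without both suckling replicates 2 and 9, which were left out because their acinar levels were highest, so that this value is no test of the list's direction. The smallest p among them belonged to Bhlha15, a factor of secretory cells (-0.71), and to the lipase gene Pnliprp1 (-1.99). Bhlha15 did not follow the list mean, as it was highest, at 8.715, on suckling replicate 11, where the list mean was 4.15. Suckling replicate 2, with the highest acinar list mean, was also the highest array for Irx1 and Irx2, as for 16.4% of all genes. Suckling replicate 9, with the next highest list mean (7.53), was the lowest array for Irx1. With the acinar list mean, Irx1 gave Pearson's r = 0.216 and Irx2 0.484 (exact permutation, adjusted p = 0.778 and 0.772). With the acinar mean as a covariate the difference of Irx2 was -0.27, that of Irx1 0.16, that of Pou3f4 -0.35 and that of Hhex 0.29. In a fit lacking suckling replicates 2 and 9, which was added once their acinar levels were known, the differences in the same order were -0.26, 0.16, -0.46 and 0.29.

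For Hhex, the other cells in which it is known were checked through their markers. Endothelial markers had list means of 3.03 to 3.15 log2 units on weaned and 2.87 to 3.26 on suckling arrays, and 3 of 8 were above the olfactory receptor percentile, with Pecam1 at 2.90 and 3.07 in the groups and Flt1 at 3.38 and 3.50. The endothelial list mean lay below 3.27 on every array, so its order among arrays is one of values near the background. It was lowest on suckling replicate 12, where Hhex was highest, and highest on suckling replicate 11, where Hhex was lowest. Cd93, an endothelial and myeloid gene outside the list that was picked by its r with Hhex, ran the other way. It stood at 4.89 on suckling replicate 11 and at 5.82 on suckling replicate 12. Duct markers, 5 of 7 measured and all 5 above the percentile, had list means of 5.40 to 5.75 on weaned and 5.39 to 6.20 on suckling arrays. By mean 3 of 5 were higher and 2 lower in weaned mice, with a median of 0.04. Of the 5, 1 had an unadjusted p under 0.05, beside 6.81% of all genes. The list mean was highest on suckling replicate 12 through Krt19 and Muc1, while Krt7, Sox9 and Cftr had their highest levels on weaned arrays. Krt19, a duct keratin, stood at 3.80, 5.23 and 5.12 log2 units in weaned mice 4, 5 and 12 and at 3.60, 4.98, 5.63 and 6.84 on suckling replicates 2, 9, 11 and 12. The mucin gene Muc1 was lower on every weaned than on every suckling array (-0.65, limma, adjusted p = 0.757), beside 3.43% of all genes. Its highest level, 4.57, was on suckling replicate 12. The part of duct or endothelial cell RNA in the level of Hhex was not tested.

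Leukocyte markers had list means of 3.71 to 3.94 log2 units on weaned and 3.79 to 3.90 on suckling arrays, with 5 of 9 above the percentile. Ptprc, the defining leukocyte surface protein CD45, had levels of 2.66 to 3.22 on all arrays, within the olfactory receptor range, and the complement genes C1qa and C1qb differed by 0.34 and -0.23. Stellate and fibroblast markers had list means of 3.23 to 3.40 on weaned and 3.26 to 3.64 on suckling arrays, with 3 of 7 above the percentile. The collagen gene Col1a2 was lower on every weaned than on every suckling array (-0.29), beside 3.43% of all genes. It was the 1 member with an unadjusted p under 0.05, beside 6.81% of all genes, and Lum differed by 0.10. Of the Schwann cell markers, 2 of 4 were measured, Sox10 at 0.07 and S100b at -0.02.

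**Figure D5:**
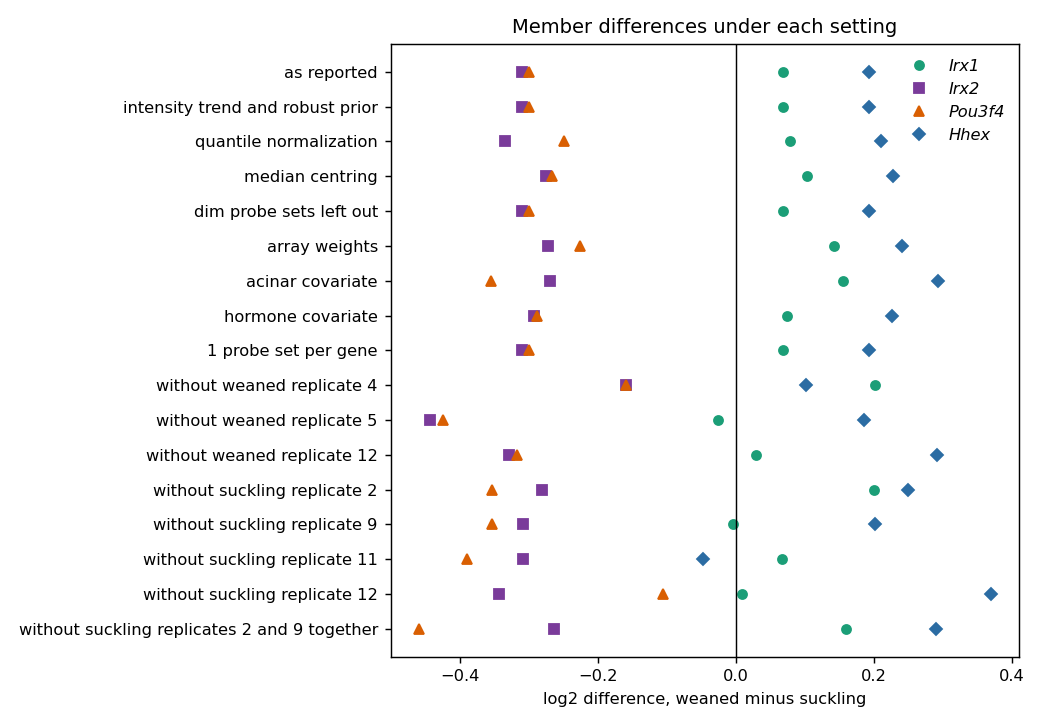
Log2 difference of each member, weaned minus suckling (x axis), as reported and under each alternative setting (y axis). Irx2 and Pou3f4 stay below 0 in all settings, from -0.44 to -0.16 and from -0.46 to -0.10, whereas Irx1 and Hhex cross 0 when single arrays are left out.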

How the data were processed

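Total RNA of sorted cells was measured on Affymetrix arrays, 1 per mouse, after amplification with the Ovation Pico System V2, per the labels' protocols. The deposited intensity values were made by the authors with RMA and Partek 6.6, per the submitters' processing notes, which give no order or settings. They run from 1.45 to 12755 with array medians of 14.1 to 14.9, a linear scale, so log2 was taken. RMA uses all arrays of a set to make each value, and its background step compresses changes at low signal. All 7 value columns were used, and the number of arrays limits the precision.

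Probe sets were named from the platform annotation, of which 21789 of 35556 carry 1 symbol, 1621 several and 12146 none. Symbols of 21698 were updated by gene ID to RefSeq (GRCm38.p6), and promoter sequences are RefSeq's. For list genes the probe set with the highest mean stood for the gene. The array annotation names no build.

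Groups were compared with limma 3.58.1 in R 4.3.3 over all probe sets, with no covariate, two-sided, with Benjamini-Hochberg adjustment at 0.05. The descriptions carry 1 code on all weaned and another on all suckling arrays, so whatever it stands for cannot be told apart from weaning. Correlations over arrays used exact two-sided permutation and adjustment over 20 pairs. In 10 simulated draws with 200 of 35556 probe sets changed, limma recovered 5.52% of 1.5-fold, 54.3% of 2-fold and 91.7% of 4-fold changes, and 6.08% of calls were unchanged probe sets. The draws used independent normal noise and 200 changed probe sets, where the real fit called 3. These shares therefore need not hold for the members.

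Named genes were all members, the Iroquois list, hormone genes with Pdx1, Nkx6-1 and Nkx2-2, the 2 genes with the smallest p of each other list where none passed, and the 3 genes most like each member. Outside this rule, Ucn3 was named for the correlations. Iapp, Ptprc, Krt7, Sox9, Cftr and the chromosomal neighbours of the members were chosen after their values were seen. Members and lists were chosen with earlier results of these data known. Alternatives were another prior, scaling, filter, weighting, covariate or unit of the fit, and leaving out each array.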

Additional observations from a re-analysis of the deposited data

Results flagged for a closer look

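Pou3f4 on suckling replicate 12 stood apart from the other suckling arrays, at 4.08 log2 units against 3.22 to 3.33. The gap to the nearest array was 0.871 of the group's range, above Dixon's 95% critical value for 4 samples. Of 15 genes checked this was the only such value, and chance flags about 1 in 20 groups. The same array was the highest for Hhex (4.30).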

How the results depend on the processing

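No paired analysis was possible because the groups share only the replicate number 12. No member passed the adjusted threshold under any of 16 alternatives. Irx2 and Pou3f4 kept their sign in all 16, while Irx1 turned to -0.026 without weaned replicate 5 and -0.0031 without suckling replicate 9, and Hhex to -0.048 without suckling replicate 11. With 1 array left out the differences ran from -0.026 to 0.20 for Irx1, -0.44 to -0.16 for Irx2, -0.42 to -0.10 for Pou3f4 and -0.048 to 0.37 for Hhex. The number of probe sets called by limma, 3 as reported, was 0 with the acinar covariate (1782 at an unadjusted p under 0.05), 0 with the hormone covariate (2182), 0 without suckling replicates 2 and 9 (1763), and 0 to 2 with 1 array left out. The hormone covariate, the mean of Gcg, Sst and Ppy, and the fit without both arrays were chosen after the data were seen. With the hormone covariate Irx2 differed by -0.29. The median of the Iroquois list was 0.069 with dim probe sets left out, which leaves 3 genes, and 0.068 without suckling replicates 2 and 9. That of the other alpha cell genes was -0.21 without suckling replicate 11, and -0.21 to 0.039 over single arrays left out. Correlations changed sign without the 2 farthest arrays for Irx1 with Ppy (0.703), Irx2 with Gcg (-0.364), Pou3f4 with Sst (-0.222), Hhex with Sst (0.206) and Hhex with Ucn3 (0.547), and on deviations from group means for Pou3f4 with the acinar mean (-0.16). The cause was not tested. Signal close to background limits Pou3f4 on 3 of 7 arrays and Hhex on 1.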
